A study of Mus musculus with 9 samples.

Results

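Expression of the transcription factor p53 (Trp53) and of 8 of its direct target genes (Mdm2, Cdkn1a, Ccng1, Trp53inp1, Phlda3, Zmat3, Sesn1 and Aen) was followed in mouse plasmacytoid dendritic cells (pDCs), which release large amounts of type I interferon when they sense nucleic acids. The 9 genes were taken as a named list and matched by symbol to the gene identifiers of the count table, which held 57126 genes, 51884 of them with a symbol. All 9 matched, and all 9 passed the filter on low counts among 17555 tested genes. The RNA came from pDCs isolated by flow cytometry and treated with oxidized mitochondrial DNA (Ox-mtDNA), with mitochondrial DNA (mtDNA) or with phosphate-buffered saline (PBS, the vehicle), with 3 libraries in each of the 3 groups. Strain, tissue of origin, age, dose and time of treatment are not given in the sources used here. The labels do not say whether replicates were separate animals or cultures, so p-values measure only the spread between these samples, which between replicates 1 and 2 may be technical. In bulk RNA of this kind, fewer cells of a type and less RNA per cell cannot be told apart.

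As background, p53 is kept low in resting cells by the ubiquitin ligase Mdm2, which p53 itself induces. DNA damage and other stresses release it, mostly by changes to the protein rather than to its mRNA, so the mRNAs of its targets are the usual transcript readout of its activity. These targets arrest the cell cycle, repair or tolerate damage, adjust metabolism or lead to cell death. Cdkn1a (p21) also lowers many cell cycle genes through the repressor complex DREAM.

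No change of p53 or of its 8 targets was detected against the spread between replicates in any of the 3 comparisons. After Ox-mtDNA, 0 of the 9 genes passed an adjusted p of 0.05 relative to PBS (edgeR quasi-likelihood test with Benjamini-Hochberg adjustment over all genes), where the background was 0% of 17555 tested genes. None of the 9 was under an unadjusted p of 0.05 either, beside 9.81% of all genes. With the replicate number as a block, 1 of the 17555 genes (0.0057%) and 0 of the 9 were called, and 1 of the 9, Sesn1, was under an unadjusted p of 0.05, beside 19.1% of all genes. DESeq2 called 2.11% of all genes and 0 of the 9. The Ox-mtDNA libraries disagreed with each other. In replicate 2, 8 of the 9 genes were above PBS of the same number and at their highest of all 9 libraries, while 8 were below PBS in replicate 1 and 7 in replicate 3. Sesn1 was the exception, lower after Ox-mtDNA than after PBS at each of the 3 replicate numbers.

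**Figure D1:**
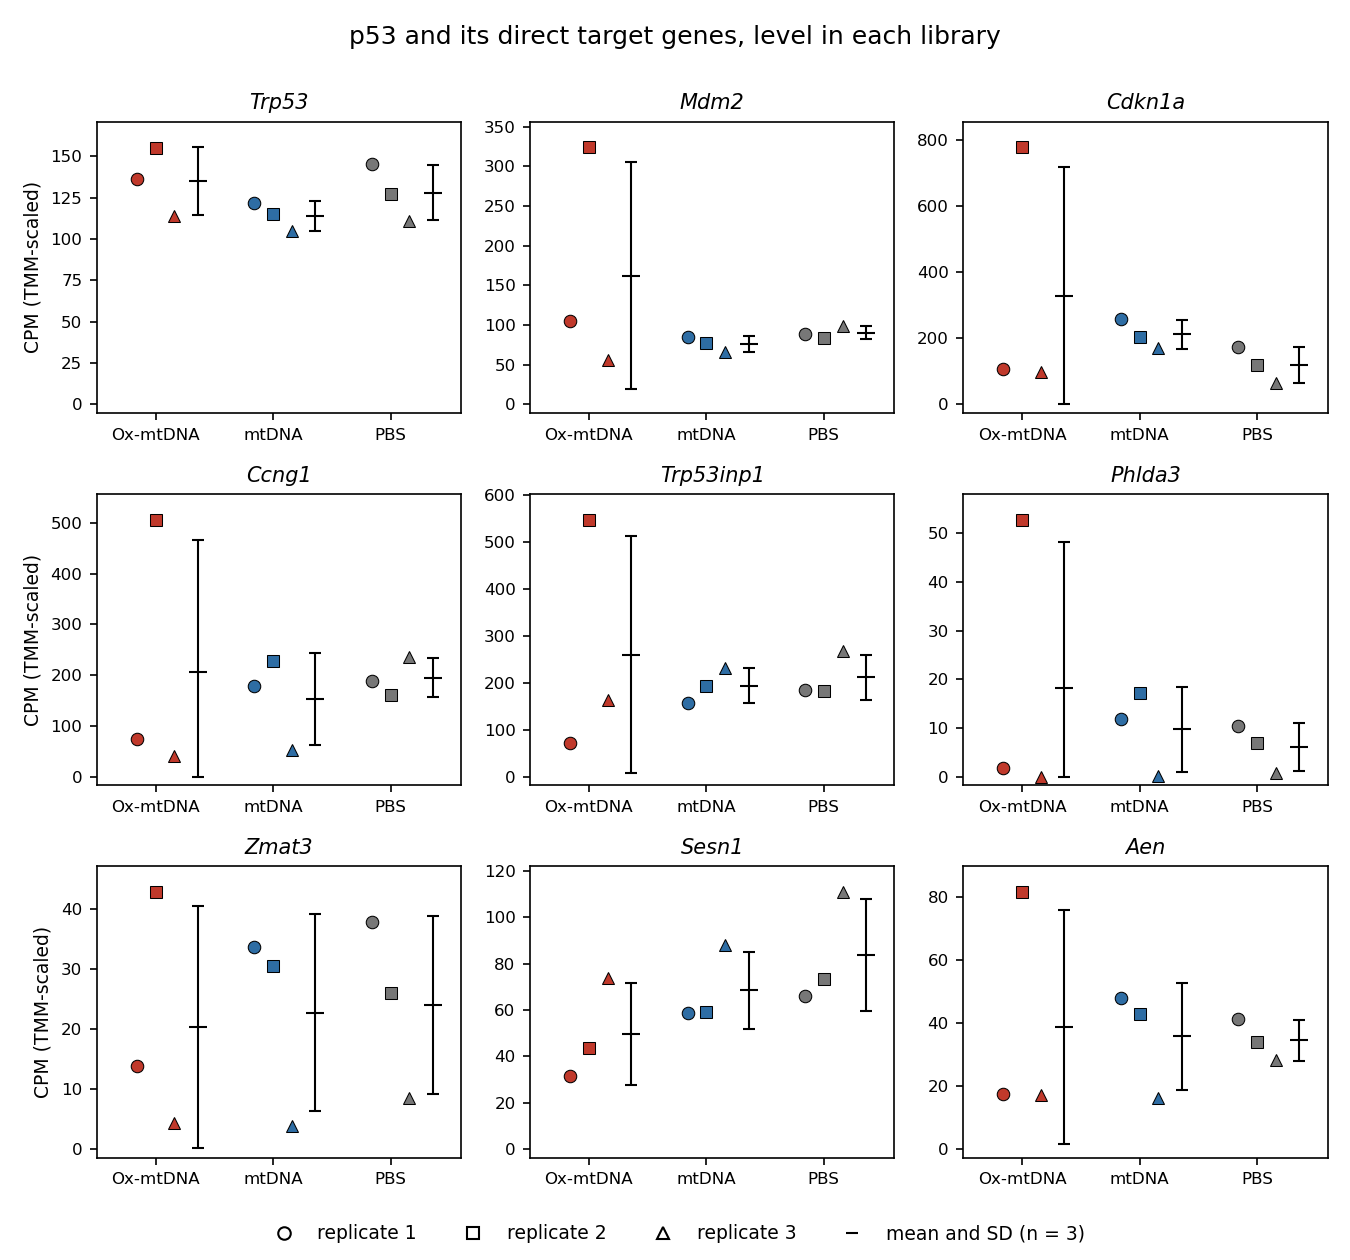
Level of p53 and its 8 targets in each library, in CPM (counts scaled to library size with TMM factors, linear axes), for Ox-mtDNA, mtDNA and PBS from left to right. Symbols mark the replicate number, and the bars give the mean and SD of 3 libraries, with the lower end of the SD stopped at 0. The square of Ox-mtDNA replicate 2 is the highest point in every panel except that of Sesn1, as for Cdkn1a at 777 CPM.

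Library totals ranged from 16029951 to 25378884 counts, with 20734950 in Ox-mtDNA replicate 2. All 13 pDC markers examined were detected, and their summed level was 4920 to 11200 CPM after Ox-mtDNA, 7200 to 10900 CPM after mtDNA and 8880 to 12900 CPM in PBS. The lowest of these sums, 4920 CPM, belonged to Ox-mtDNA replicate 2. Replicate 3 stood apart in all 3 groups: principal component 1 (70.7% of the variance) set its libraries against the other 6. Xist, expressed from the inactive X chromosome, was at 818 to 2090 CPM in replicate 3 and at 0.846 CPM or less elsewhere. Genes of the Y chromosome summed to 1.18 to 5.52 CPM in replicate 3 and to 259 to 378 CPM elsewhere. These are the levels of female cells in replicate 3 and of male cells in replicates 1 and 2, in each group, so the spread that includes replicate 3 also holds a difference between animals. Between replicates 2 and 1 of Ox-mtDNA the median absolute difference over all tested genes was 0.67 on the log2 scale, compared with 0.20 in mtDNA and 0.21 in PBS.

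The upstream sequences of 5 targets are shown because p53 can bind near the start sites of its targets. Sites outside the windows were not searched. All 5 windows shown hold a p53 half-site, the 10-base unit of its response element. Windows of the targets without one are not printed, so this follows from the choice of windows. A RefSeq promoter window (GRCm38.p6, 250 bases before to 50 bases after a start) was found for 7 of the 9 genes, which had 10 windows between them; Trp53inp1 and Zmat3 are named only. Both strands were searched, with overlapping matches allowed. At least 1 half-site stood in a window of 6 of these 7 genes, beside 8.36% of all 32851 windows and 9.55% of 27025 gene symbols. The pair of p53 core letters written CATGNNNNNNCATG, which can overlap a half-site, was found in 1 of the 7 genes, Cdkn1a, and in 0.712% of all windows. Each line gives the 250 bases before the start, 5′ to 3′ on the gene's strand, with capitals marking the half-sites.
Cdkn1a: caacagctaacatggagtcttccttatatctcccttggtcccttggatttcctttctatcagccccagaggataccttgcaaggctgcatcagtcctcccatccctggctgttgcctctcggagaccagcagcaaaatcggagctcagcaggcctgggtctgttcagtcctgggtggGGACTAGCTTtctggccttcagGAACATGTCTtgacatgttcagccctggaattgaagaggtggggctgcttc
Mdm2: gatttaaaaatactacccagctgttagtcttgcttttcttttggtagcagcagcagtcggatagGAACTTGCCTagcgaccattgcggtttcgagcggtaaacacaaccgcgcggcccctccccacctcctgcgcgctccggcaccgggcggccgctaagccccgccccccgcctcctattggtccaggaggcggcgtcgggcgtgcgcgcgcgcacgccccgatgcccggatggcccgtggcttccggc
Ccng1: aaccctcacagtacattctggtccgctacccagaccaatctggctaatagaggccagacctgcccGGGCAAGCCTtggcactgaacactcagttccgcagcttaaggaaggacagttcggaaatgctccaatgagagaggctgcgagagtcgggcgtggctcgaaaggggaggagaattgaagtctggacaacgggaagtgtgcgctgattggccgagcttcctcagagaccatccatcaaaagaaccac
Aen: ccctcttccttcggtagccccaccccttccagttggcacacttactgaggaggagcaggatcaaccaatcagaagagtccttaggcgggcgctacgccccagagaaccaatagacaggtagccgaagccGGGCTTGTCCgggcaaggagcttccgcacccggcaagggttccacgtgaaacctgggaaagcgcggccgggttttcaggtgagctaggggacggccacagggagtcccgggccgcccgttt
Sesn1: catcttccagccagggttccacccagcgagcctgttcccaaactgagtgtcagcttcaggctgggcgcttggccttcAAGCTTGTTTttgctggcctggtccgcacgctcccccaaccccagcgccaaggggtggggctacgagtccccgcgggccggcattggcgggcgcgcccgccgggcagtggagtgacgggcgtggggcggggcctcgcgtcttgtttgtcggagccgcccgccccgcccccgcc
These windows lie at chr17:29090729-29090978 (+ strand) for Cdkn1a, chr10:117710759-117711008 (- strand) for Mdm2, chr11:40755287-40755536 (- strand) for Ccng1, chr7:78895808-78896057 (+ strand) for Aen and chr10:41887189-41887438 (+ strand) for Sesn1, all in GRCm38.p6. The Cdkn1a window belongs to the more upstream of its 2 RefSeq starts, 2790 bases before the other. It held GGACTAGCTT and GAACATGTCT, whose first bases lie 73 and 51 bases before the start, and the second overlaps CATGTCTTGACATG. A match is a description of the letters only, and the windows of Phlda3, the downstream Cdkn1a start and the upstream Sesn1 start held none. The gene positions below are those of the count table, which uses another build (GRCm39), and positions of the builds are not mixed.

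Trp53 itself (chr11:69471185-69482699, + strand, GRCm39) encodes p53, and as for every gene here the counts cover all its annotated exons. It had 136, 155 and 114 CPM in replicates 1, 2 and 3 of Ox-mtDNA, 122, 115 and 105 CPM in mtDNA and 145, 127 and 111 CPM in PBS. The 3 groups overlapped, and no library departed far from the rest. Its log2 fold change was 0.08 (SE 0.23, adjusted p = 1) for Ox-mtDNA over PBS and -0.16 (SE 0.23, adjusted p = 1) for mtDNA over PBS by edgeR. Per length, it was the most abundant of the 9 in PBS at 68.3 CPM per kb of exon, ahead of Ccng1 at 55.4, Cdkn1a at 43.7, Trp53inp1 at 39.2, Mdm2 at 28.7 and Sesn1 at 21.1 CPM per kb. Aen, Phlda3 and Zmat3 were scarce on that scale, at 6.73, 4.24 and 3.08 CPM per kb.

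Mdm2 (chr10:117524780-117546663, - strand) encodes the ubiquitin ligase that marks p53 for degradation. Its levels were 105, 324 and 55.6 CPM in Ox-mtDNA, 84.8, 78 and 65.5 CPM in mtDNA and 88.3, 83.2 and 99.3 CPM in PBS, in replicates 1, 2 and 3 of each. The Ox-mtDNA group thus held both the highest and the lowest of the 9 libraries and spanned the range of the other groups. Over PBS, the log2 fold change of Ox-mtDNA was 0.84 (SE 0.56, unadjusted p = 0.173, adjusted p = 0.742 by edgeR). Against PBS of the same number, replicate 2 of Ox-mtDNA was 3.89-fold and replicate 3 was 0.56-fold.

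Cdkn1a (chr17:29309953-29319701, + strand) encodes p21, the inhibitor of cyclin-dependent kinases that arrests the cell cycle downstream of p53. It had 106, 777 and 97.6 CPM in replicates 1, 2 and 3 of Ox-mtDNA, 258, 205 and 172 CPM in mtDNA and 173, 118 and 65.5 CPM in PBS. Only replicate 2 of Ox-mtDNA exceeded all mtDNA and PBS libraries, while replicates 1 and 3 of Ox-mtDNA lay within the PBS range. The log2 fold change of Ox-mtDNA over PBS was 1.46 (SE 0.81, unadjusted p = 0.11, adjusted p = 0.635 by edgeR), and it was -0.24 without Ox-mtDNA replicate 2. Cdkn1a shared 273 exon bases, 10% of its exon length, with AC167363.2 on the opposite strand; counting did not use strand, so reads there cannot be assigned to one of them. No other of the 9 genes shared exon bases with another gene.

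Cdkn1a was also the one gene of the 9 that was higher after mtDNA than after PBS at all 3 replicate numbers, by 0.58, 0.79 and 1.39 on the log2 CPM scale. That pattern held for 20.8% of all tested genes in this comparison. The fitted log2 fold change was 0.83 (SE 0.80, adjusted p = 1 by edgeR), and PBS replicate 1 lay just above mtDNA replicate 3, so the groups overlapped.

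Ccng1 (chr11:40639379-40646138, - strand) encodes cyclin G1, a p53 target that recruits a phosphatase to Mdm2. Its levels were 73.9, 506 and 40.3 CPM in replicates 1, 2 and 3 of Ox-mtDNA, 179, 227 and 51.9 CPM in mtDNA and 189, 160 and 235 CPM in PBS. Replicates 1 and 3 of Ox-mtDNA lay below every PBS library and replicate 2 above all of them. A log2 fold change of 0.09 (SE 0.91, adjusted p = 1 by edgeR) for Ox-mtDNA over PBS averaged these opposite values, and it was -0.81 with the replicate number as a block.

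Trp53inp1 (chr4:11156431-11174379, + strand) encodes a stress protein that promotes p53 activity and autophagy. It had 71.6, 547 and 163 CPM in replicates 1, 2 and 3 of Ox-mtDNA, 157, 193 and 231 CPM in mtDNA and 185, 183 and 267 CPM in PBS. As for Ccng1, replicates 1 and 3 of Ox-mtDNA were below all PBS libraries and replicate 2 above. Ox-mtDNA over PBS gave a log2 fold change of 0.30 (SE 0.64, adjusted p = 1 by edgeR), or -0.05 with the replicate block.

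Aen (chr7:78545675-78560957, + strand), an exonuclease that enhances apoptosis, followed the same order. Its levels were 17.6, 81.7 and 17.3 CPM in replicates 1, 2 and 3 of Ox-mtDNA, 48, 43 and 16.3 CPM in mtDNA and 41.4, 33.9 and 28.4 CPM in PBS. Again the Ox-mtDNA libraries fell on both sides of the whole PBS group. For this gene the log2 fold change was 0.17 (SE 0.67, adjusted p = 1 by edgeR) for Ox-mtDNA over PBS and -0.15 with the replicate block.

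Phlda3 (chr1:135693857-135696874, + strand) encodes a small lipid-binding protein that restrains Akt signalling. It had 1.76, 52.8 and 0 CPM in replicates 1, 2 and 3 of Ox-mtDNA, 11.9, 17.2 and 0.109 CPM in mtDNA and 10.5, 7.01 and 0.759 CPM in PBS. Replicate 3 was lowest in each group, and the 0 counts in Ox-mtDNA replicate 3 allow a level of up to 0.155 CPM (3 counts). Genes of similar base composition were low in replicate 3 as well. The GC content of Phlda3 was 62.6%, and between replicate 3 and the mean of the others in PBS it differed by -3.33 on the log2 scale, beside a median of -3.66 for the 209 genes within 1 percentage point of its GC. Its log2 fold change of Ox-mtDNA over PBS was 1.58 (SE 2.12, adjusted p = 0.959 by edgeR), or -0.31 with the replicate block, and -2.81 without Ox-mtDNA replicate 2.

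Zmat3 (chr3:32388941-32419827, - strand) encodes an RNA-binding zinc finger protein, part of tumour suppression by p53 in mice. It had 13.8, 42.8 and 4.39 CPM in replicates 1, 2 and 3 of Ox-mtDNA. The values were 33.7, 30.5 and 3.81 CPM in mtDNA and 37.8, 25.9 and 8.43 CPM in PBS. Replicate 3 was low in all 3 groups here too, although the GC content of 47.6% was moderate: the difference in PBS was -1.88, beside a median of 0.31 for genes within 1 percentage point. For Ox-mtDNA over PBS the log2 fold change was -0.24 (SE 1, adjusted p = 1 by edgeR).

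Sesn1 (chr10:41685931-41784420, + strand), a sestrin that limits mTORC1 signalling and oxidative stress, was the only one of the 9 genes below PBS in replicate 2 of Ox-mtDNA. Its levels were 31.5, 43.5 and 73.9 CPM in replicates 1, 2 and 3 of Ox-mtDNA. They were 58.8, 59.1 and 87.9 CPM in mtDNA and 66.3, 73.5 and 111 CPM in PBS. At each replicate number the Ox-mtDNA library was lowest, the mtDNA library intermediate and the PBS library highest, while the groups as wholes overlapped through replicate 3. Ox-mtDNA minus PBS was -1.07, -0.76 and -0.59 on the log2 CPM scale, and mtDNA minus PBS was -0.17, -0.31 and -0.34. Of all tested genes, 17.6% were lower at all 3 numbers after Ox-mtDNA and 19.4% after mtDNA. The log2 fold change of Ox-mtDNA over PBS was -0.75 (SE 0.38, unadjusted p = 0.0835, adjusted p = 0.586 by edgeR), the smallest p of the 9 genes. With the replicate block it was -0.80 (SE 0.20, unadjusted p = 0.00398, adjusted p = 0.133 by edgeR). For Ox-mtDNA over mtDNA, the block gave -0.53 (SE 0.20, unadjusted p = 0.0301, adjusted p = 0.729 by edgeR), the one gene of the 9 under an unadjusted p of 0.05 there, beside 6.81% of all genes. The fold change of Ox-mtDNA over PBS kept its sign in the fit without the block when any single library was left out, between -1.23 and -0.51.

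**Figure D2:**
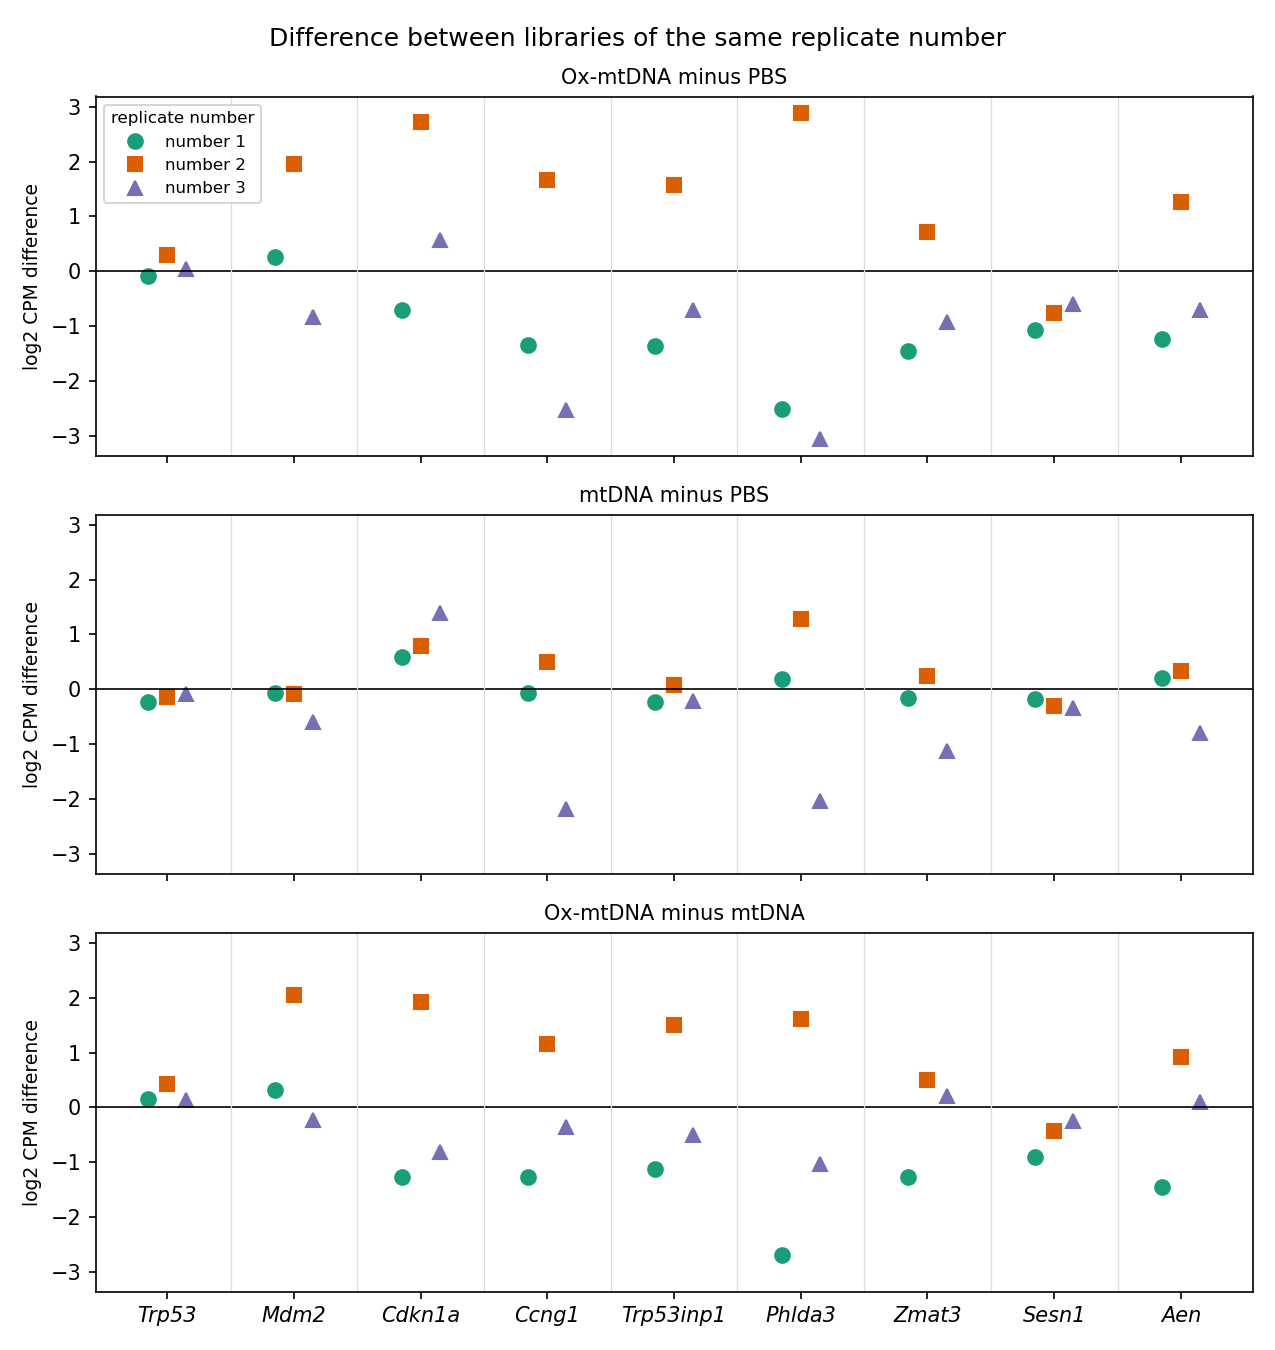
Log2 CPM differences within each replicate number for Ox-mtDNA minus PBS (top), mtDNA minus PBS (middle) and Ox-mtDNA minus mtDNA (bottom). In the top panel the squares of number 2 lie above 0 for 8 genes, with a median over the 9 genes of 1.58, while the medians of numbers 1 and 3 are -1.23 and -0.71; the points of Sesn1 lie below 0 in all 3 panels.

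Set side by side, the 9 genes had a median difference of Ox-mtDNA minus PBS of -1.23, 1.58 and -0.71 log2 units at numbers 1, 2 and 3, beside 0, 0 and 0.1 for all tested genes. Within replicates 1 and 2 of mtDNA and PBS, none of the 9 genes varied by more than 2.45-fold between the highest and lowest of those 4 libraries. Between Ox-mtDNA replicates 2 and 1 the fold was 1.14 for Trp53, 1.38 for Sesn1 and 3.07 to 30.1 for the other 7. Among those 7 were Cdkn1a at 7.34, Trp53inp1 at 7.63 and Phlda3 at 30.1. Of all tested genes, 16.9% were more than 1 log2 unit higher in replicate 2 than in replicate 1 of Ox-mtDNA, and 16.5% more than 1 lower. The position of 8 of 9 genes (88.9%) at their highest in Ox-mtDNA replicate 2 was noticed in these values, and 19.4% of all tested genes were highest there. Of the 55 other p53 targets tested, 20 (36.4%) had their highest level in that library.

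The same library held the lowest levels of cell cycle genes. The list of 30 genes that p53 lowers through p21 and DREAM was chosen with earlier results of these data known. Of these 30 genes, 23 (76.7%) had their lowest of the 9 libraries in Ox-mtDNA replicate 2, compared with 18.7% of all tested genes. Their median level was 5.51 log2 CPM in Ox-mtDNA replicate 2 and 6.10 to 7.15 in the other 8 libraries. By treatment, 0 of 30 were called by edgeR in any comparison (background 0% in each) and 0 were under an unadjusted p of 0.05. Their median log2 fold change was 0.21 for Ox-mtDNA over PBS and 0.27 for mtDNA over PBS. Mcm2, a subunit of the replicative helicase, had the smallest p for Ox-mtDNA over PBS, with a log2 fold change of 1.04 (SE 0.57, adjusted p = 0.625 by edgeR). Markers of pDCs were also at their lowest sum in this library, and those of conventional type 2 dendritic cells and of monocytes and macrophages too, at 324 and 451 CPM, while B cell markers, at 3120 CPM, were within the range of 1760 to 3310 CPM of the other libraries. The part of these values in the level of the p53 targets was not tested.

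**Figure D3:**
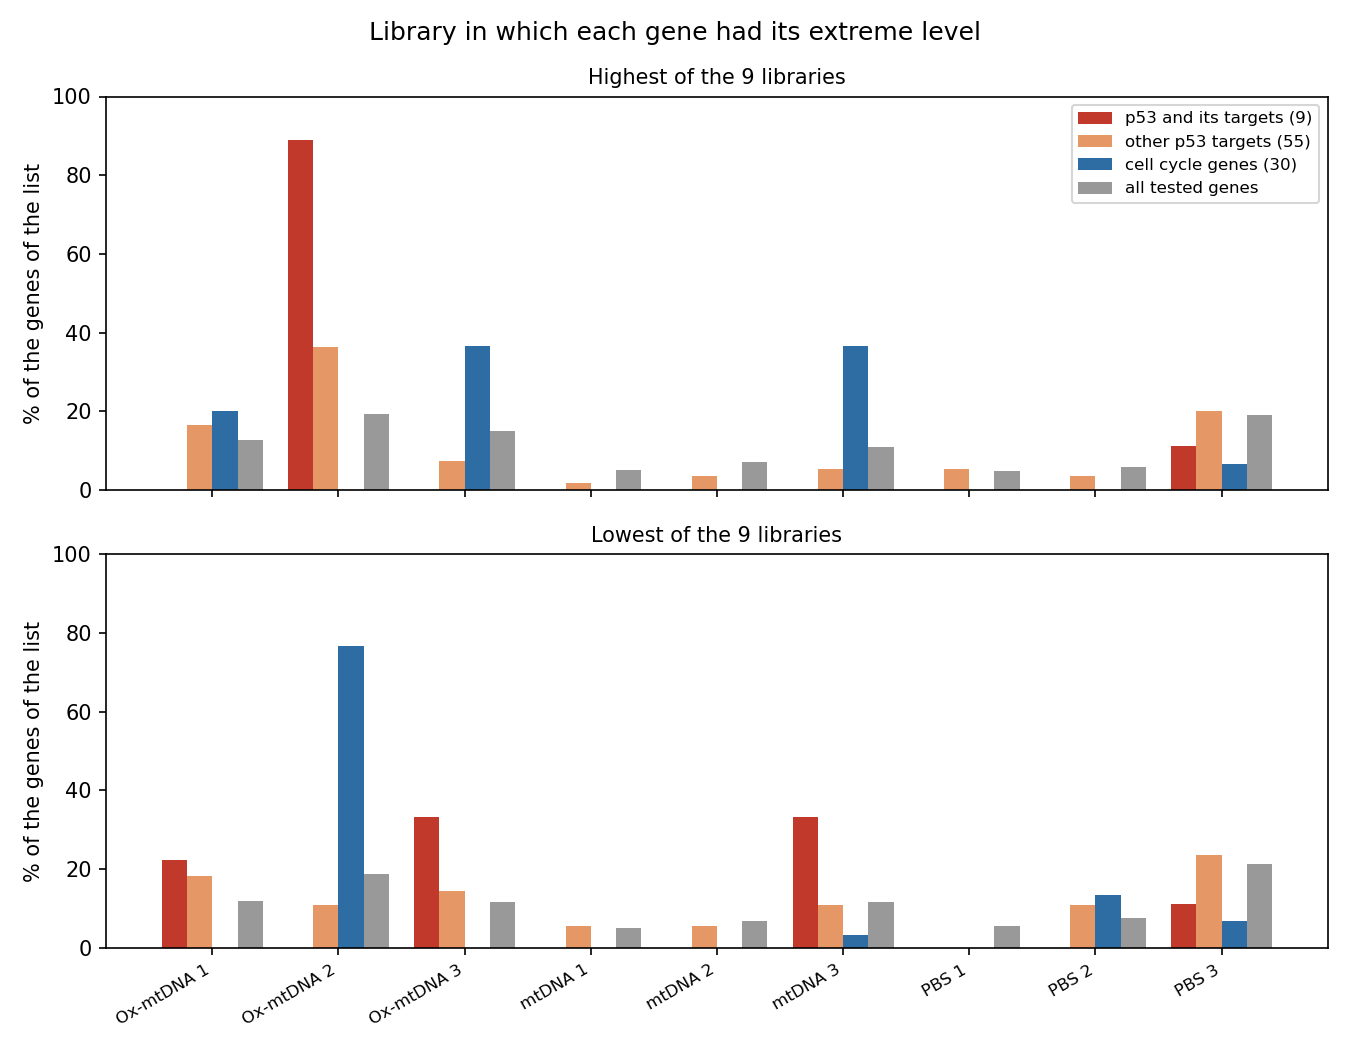
Share of genes whose highest (top) or lowest (bottom) level of the 9 libraries fell in each library, for p53 and its 8 targets, 55 other p53 targets, 30 cell cycle genes and all 17555 tested genes. Ox-mtDNA replicate 2 holds the highest level of 88.9% of p53 and its targets and the lowest of 76.7% of the cell cycle genes, beside 19.4% and 18.7% of all genes.

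Leaving out Ox-mtDNA replicate 2 turned the direction of 7 of the 9 genes. With all 9 libraries, 7 of the 9 log2 fold changes of Ox-mtDNA over PBS were positive, beside 53.8% of all tested genes, and 3 of the 9 were with the replicate block. Without that library all 9 were negative, between -2.81 for Phlda3 and -0.04 for Trp53, beside 50.5% of 18456 tested genes, and 0 of the 9 were called. Without Ox-mtDNA replicate 3, in contrast, 8 were positive, with Cdkn1a at 1.86.

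**Figure D4:**
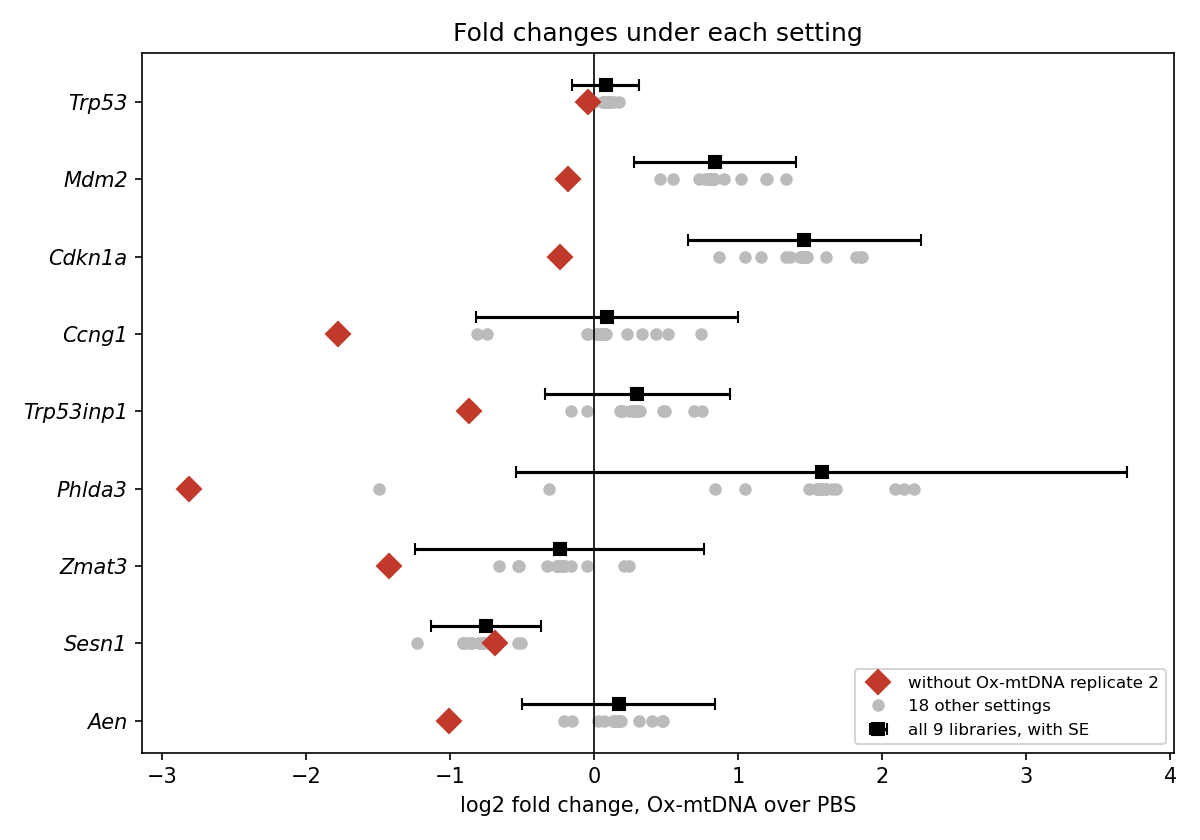
Log2 fold change of Ox-mtDNA over PBS for p53 and its 8 targets with all 9 libraries (black squares, with the SE), without Ox-mtDNA replicate 2 (red diamonds) and under 18 other settings (grey points). The red diamonds lie below 0 for all 9 genes, the farthest for Phlda3 at -2.81, while the grey points of Mdm2 and Cdkn1a stay above 0 and those of Sesn1 below 0.

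In the comparison of mtDNA with PBS, 0 of the 9 genes were called (background 0%) and 0 were under an unadjusted p of 0.05 (background 2.62%). The log2 fold changes ran from -0.35 for Ccng1 to 0.83 for Cdkn1a, with 3 of 9 positive beside 52% of all genes. Besides Sesn1, Trp53 and Mdm2 were lower at all 3 replicate numbers, Mdm2 with differences of -0.06, -0.09 and -0.60 log2 units. In the comparison of Ox-mtDNA with mtDNA, 0 of the 9 were called (background 0%) and 0 were under an unadjusted p of 0.05 (background 2.4%). Here 7 of 9 log2 fold changes were positive (54.2% of all genes). Mdm2 had the smallest p there, with a log2 fold change of 1.09 (SE 0.57, unadjusted p = 0.0896, adjusted p = 1 by edgeR), with differences of 0.31, 2.05 and -0.24 log2 units at numbers 1, 2 and 3. DESeq2 called 0 of the 9 in both comparisons, beside 0.0797% of all genes for mtDNA over PBS and 0.0057% for Ox-mtDNA over mtDNA. Both comparisons with PBS share the PBS libraries, and both with Ox-mtDNA share the Ox-mtDNA libraries.

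Among other targets of p53, 5 had all 3 Ox-mtDNA libraries above all 3 PBS libraries: Plk2, Gadd45a, Psrc1, Pmaip1 and Lif. They were 9.09% of the 55 tested, beside 7.41% of all tested genes, and none was called by edgeR with all 9 libraries. Of 60 other targets from the cell cycle, cell death, repair, metabolic and signalling branches, 55 were tested and 0 were called in any comparison by edgeR with all libraries. For Ox-mtDNA over PBS, 5 were higher and 1 lower at an unadjusted p of 0.05, 10.9% of the 55 beside 9.81% of all tested genes, and their median log2 fold change was 0.04 beside 0.06. For mtDNA over PBS, 3 were higher and 2 lower, 9.09% of the 55 beside 2.62% of all tested genes, with a median of -0.08 beside 0.02, and for Ox-mtDNA over mtDNA the count was 0, beside 2.4% of all genes, and the median 0.16 beside 0.04.

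Plk2, a polo-like kinase of the checkpoint branch, had 89.1, 87.7 and 289 CPM in replicates 1, 2 and 3 of Ox-mtDNA, 8.81, 10 and 264 CPM in mtDNA and 6.09, 3.71 and 4.4 CPM in PBS. All Ox-mtDNA libraries lay far above all PBS libraries, and of the mtDNA libraries replicate 3 stood with Ox-mtDNA. Its log2 fold change of Ox-mtDNA over PBS was 5.03 (SE 1.44, unadjusted p = 0.00804, adjusted p = 0.472 by edgeR). With replicates 1 and 2 alone it was 4.18 (SE 0.32, adjusted p = 0.0276 by edgeR), where 0.146% of 17151 genes and 0 of the 9 genes above were called, and with the replicate block in that fit the adjusted p was 0.103.

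Pmaip1 encodes Noxa, a BH3-only protein of the cell death branch. It was at 731, 477 and 1610 CPM in replicates 1, 2 and 3 of Ox-mtDNA, at 134, 145 and 1540 CPM in mtDNA and at 76, 69.1 and 103 CPM in PBS. Every Ox-mtDNA library exceeded every PBS library, and unlike Cdkn1a or Mdm2 the lowest Ox-mtDNA value was that of replicate 2. The log2 fold change was 3.51 (SE 1.03, adjusted p = 0.472 by edgeR), and 3.06 (SE 0.27, adjusted p = 0.0339 by edgeR) with replicates 1 and 2 alone, where the block again gave an adjusted p of 0.103. DESeq2 with all libraries called Pmaip1 and none of the other p53 targets or of the 9 genes, where 2.11% of all genes were called.

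Gadd45a, a stress sensor of the checkpoint branch, was at 26.6, 50.2 and 61.5 CPM in replicates 1, 2 and 3 of Ox-mtDNA, at 12.5, 11.5 and 88 CPM in mtDNA and at 12.3, 9.28 and 8.88 CPM in PBS. Its groups did not overlap between Ox-mtDNA and PBS, as for 7.41% of all genes on the higher side, and the log2 fold change was 2.18 (SE 0.81, adjusted p = 0.473 by edgeR). Psrc1, a microtubule-associated protein, had 19.8, 24.4 and 18.2 CPM after Ox-mtDNA, 16.6, 17.1 and 18.6 CPM after mtDNA and 13, 9.74 and 12.8 CPM in PBS. Its log2 fold change was 0.81 (SE 0.27, adjusted p = 0.472 by edgeR) for Ox-mtDNA over PBS. Lif, a cytokine, stayed at 2.23 CPM or less in all libraries. Ikbip, which promotes cell death in the endoplasmic reticulum stress response, was lower, at 14.7, 8.94 and 8.36 CPM after Ox-mtDNA against 15.4, 19.2 and 41.2 CPM in PBS (log2 fold change -1.24, SE 0.44, adjusted p = 0.472 by edgeR).

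**Figure D5:**
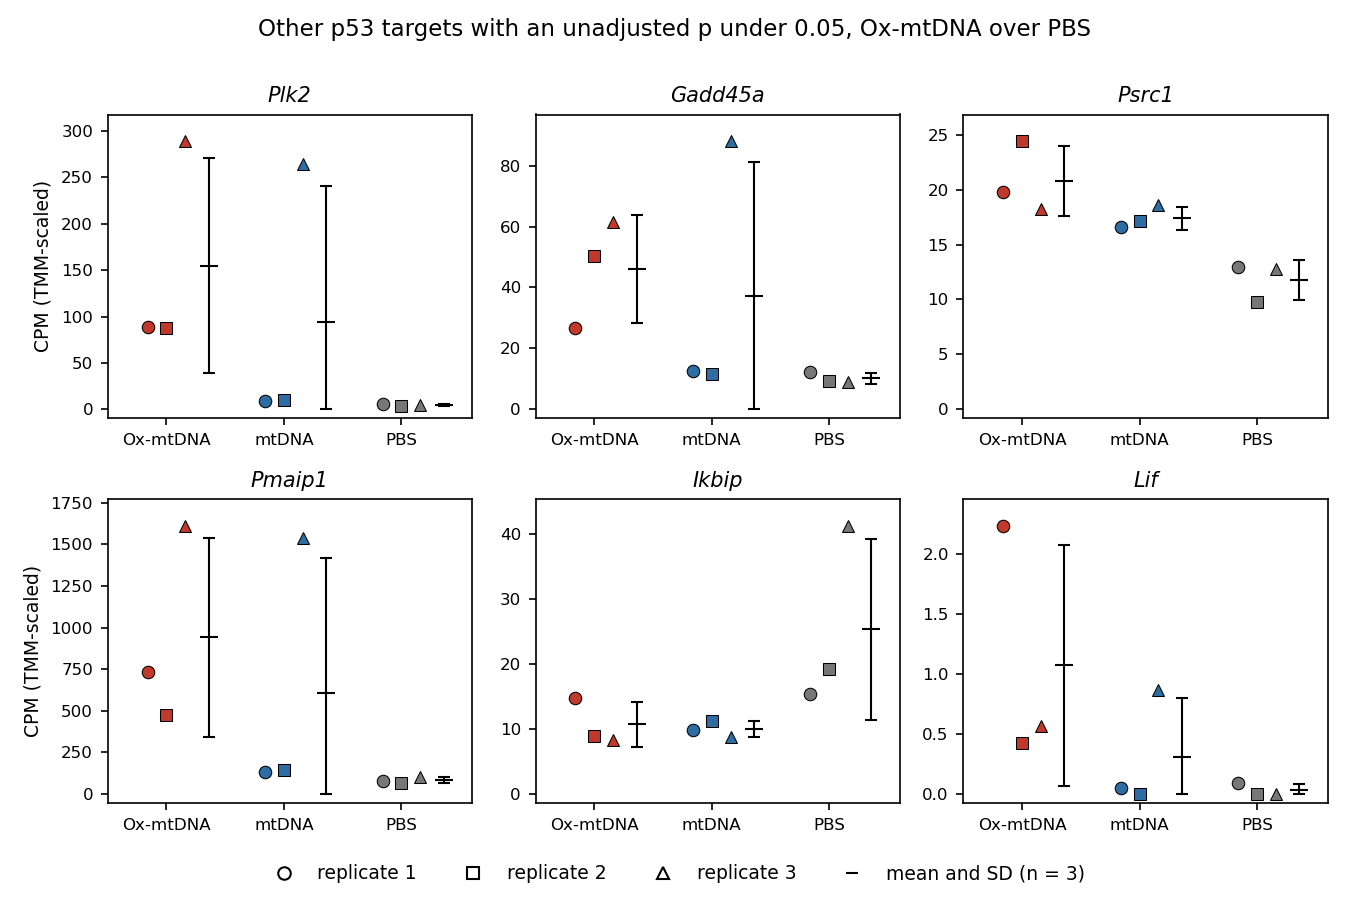
Level in each library, in TMM-scaled CPM on linear axes, of the 6 other p53 targets with an unadjusted p under 0.05 for Ox-mtDNA over PBS, with symbols for the replicate number and bars for the mean and SD of 3 libraries (lower end stopped at 0). All Ox-mtDNA points of Plk2, Gadd45a, Psrc1 and Pmaip1 lie above all PBS points, and the mtDNA triangles of replicate 3 stand at 264 CPM for Plk2 and 1540 CPM for Pmaip1.

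Several other targets also had their highest Ox-mtDNA level in replicate 2. Tnfrsf10b, a death receptor, differed between Ox-mtDNA and PBS by -0.76, 3.16 and -0.41 log2 units at numbers 1, 2 and 3. Fas, another death receptor, had 1.08, 20.2 and 1.39 CPM in the Ox-mtDNA libraries against 4.19, 2.89 and 3.68 CPM in PBS. Sesn2, the stress-induced relative of Sesn1, had 27.1, 158 and 9.44 CPM in the Ox-mtDNA libraries against 53.9, 36.9 and 1.86 CPM in PBS. Fas and Sesn2 were chosen after their values were seen. Gdf15, a secreted stress cytokine also chosen after its values were seen, did not pass the filter on low counts. It had 165, 131 and 8 counts in the Ox-mtDNA libraries, 7, 7 and 6 counts in mtDNA and 10, 5 and 0 counts in PBS.

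Among genes that act on p53, no change was detected. Of 24 regulators, all tested, 0 were called by edgeR in any comparison. For Ox-mtDNA over PBS, 1 (4.17%) was under an unadjusted p of 0.05, a smaller share than the 9.81% of all tested genes, with a median log2 fold change of -0.05 over the list beside 0.06. That gene was Atm, the kinase that activates p53 after double-strand breaks. It had 54.9, 31.9 and 37.2 CPM in replicates 1, 2 and 3 of Ox-mtDNA, 73.3, 79.6 and 45.6 CPM in mtDNA and 86.8, 105 and 89.1 CPM in PBS. The Ox-mtDNA and PBS groups did not overlap, as for 8.08% of all genes on the lower side, and the log2 fold change was -1.18 (SE 0.31, unadjusted p = 0.00528, adjusted p = 0.472 by edgeR). Atr, the related kinase of replication stress, was the one regulator (4.17%) under an unadjusted p of 0.05 for Ox-mtDNA over mtDNA, beside 2.4% of all genes, at a log2 fold change of -0.58 (SE 0.25, adjusted p = 1 by edgeR).

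Among 13 relatives of the 9 genes, 11 were tested and 0 called by edgeR. Phlda1, related to Phlda3, had 92.5, 40.7 and 0.877 CPM in replicates 1, 2 and 3 of Ox-mtDNA, 4.16, 2.37 and 1.25 CPM in mtDNA and 2.47, 1.39 and 0.266 CPM in PBS. Its log2 fold change of Ox-mtDNA over PBS was 5.02 (SE 1.51, unadjusted p = 0.0105, adjusted p = 0.472 by edgeR), while Phlda3 itself was below PBS in replicates 1 and 3. Lists of general stress genes had medians above PBS at each replicate number after Ox-mtDNA, and also after mtDNA. For immediate-early genes the medians at numbers 1, 2 and 3 were 3.02, 3.25 and 4.43 log2 units after Ox-mtDNA. After mtDNA they were 0.61, 0.48 and 4.14. For heat shock genes they were 3.49, 3.46 and 1.69 after Ox-mtDNA and 0.20, 0.46 and 1.84 after mtDNA. For Ox-mtDNA over PBS, 12 of 16 immediate-early genes and 8 of 11 heat shock genes were higher at an unadjusted p of 0.05, or 75% and 72.7% beside 5.88% of all tested genes. Their median log2 fold changes were 2.98 and 3.36, and 0 of either list were called by edgeR with all libraries. Both lists were chosen with earlier results of these data known, so these shares are a description and no independent test. With replicates 1 and 2 alone, edgeR called 2 immediate-early and 6 heat shock genes, beside 0.146% of 17151 genes, and 0 genes of any kind with the replicate block in that fit.

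The genes whose pattern over the 9 libraries was most like that of each of the 9 genes were found by the Pearson correlation of log2 CPM after the mean of each replicate number was subtracted. The 3 nearest of each gene had r between 0.967 and 0.997 over 9 libraries, which share their normalization and among which Ox-mtDNA replicate 2 stood apart. Without that subtraction the same pairs had r between -0.337 and 0.995, so for several genes the likeness holds within replicate numbers and not across all libraries. For Cdkn1a they were Ppp1r12a (0.993, or 0.995 without the subtraction), its overlapping neighbour AC167363.2 (0.99, or 0.987) and Cd5 (0.989, or 0.594). Fragments in the exon bases shared with AC167363.2 counted for both genes, so that correlation is not between separate measurements. For Mdm2 they were Ighv1-80, Pcnp and Zmym1, with r of 0.778, 0.661 and 0.956 without the subtraction. For Trp53 they were the proteasome subunits Psmc3 and Psmc5 and the gene Iah1, where r without it was -0.254, 0.007 and -0.275. For Sesn1 they were Chd8, A730017L22Rik and Tmem86a, where it was 0.707, 0.035 and 0.151.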

How the data were processed

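Polyadenylated RNA of sorted pDCs was sequenced in 9 libraries, grouped by the treatment in their titles. The deposited table gives unnormalized counts of each gene in each library, and the exon length of each gene (another measure, in bases). Per the submitters' processing notes, the tools were fastp 0.23.4, STAR 2.7.11b (build GRCm39) and featureCounts 2.0.1. Per the file headers, exons of GENCODE M34 were used, strand was not, and a fragment over several genes counted for each.

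Genes were kept with filterByExpr (minimum count 10) of edgeR 4.0.16 in R 4.3.3, which left 17555. Counts were scaled with TMM factors to CPM, and the robust quasi-likelihood fit had a coefficient for each treatment over all 9 libraries (6 residual degrees of freedom). The 3 contrasts were tested two-sided, with Benjamini-Hochberg adjustment over all tested genes and a threshold of 0.05. Differences by replicate number are of log2 CPM with a prior count of 2. The scripts were tested on simulated counts. Libraries held 16029951 to 25378884 counts, and replicates of a group differed by 15.4 to 347 times counting variance (chi-square per degree of freedom), so none were duplicates. Floors of 3 counts cover counting error only.

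Libraries with the same replicate number deviated together from their group means (correlations 0.49 to 0.90 over genes, all above 0.1). Replicate 3 stood apart in each group and so shifted every group mean. The other replicates then deviate alike whichever of them belong together, so these correlations cannot show how they pair. Pairing of the samples by number is therefore an assumption, which the labels do not state and which was not tested for the other replicates. Differences by replicate number and the fit with the replicate block rest on it. The fit with the replicate block called 1 gene of 17555 (0.0057%), Kctd19, for Ox-mtDNA over PBS.

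Symbols, GC content of transcripts (GENCODE M21) and RefSeq promoter windows (GRCm38.p6) came from reference tables. The members and the other gene lists (154 entries, all matched) were chosen with earlier results of these data known. All 9 genes are named; of each other list the counts, the median and up to 3 genes with the smallest p per comparison could be named, and the 3 genes most alike in pattern. DESeq2 1.42.0, limma 3.58.1 (voom), other scalings and filters, single libraries left out, and replicates 1 and 2 alone were tried as alternatives.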

Additional observations from a re-analysis of the deposited data

How the results depend on the processing

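None of the 9 genes was called in any of the 3 comparisons under any of the 19 alternatives. The smallest adjusted p of any of them was 0.133 (edgeR, Sesn1, Ox-mtDNA over PBS with the replicate block). The count over all genes changed: DESeq2 called 370 genes for Ox-mtDNA over PBS, 14 for mtDNA over PBS and 1 for Ox-mtDNA over mtDNA, while edgeR called 1 for Ox-mtDNA over PBS with the replicate block and 25 with replicates 1 and 2 only, against 0 in each main fit. The cause was not tested. Leaving out any single library gave 0 calls in every comparison.

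Of 513 recomputed log2 fold changes of the 9 genes, 460 kept their sign and 53 changed it, none of them called. For Ox-mtDNA over PBS, leaving out single libraries gave -0.04 to 0.17 for Trp53, -0.18 to 1.19 for Mdm2, -0.24 to 1.86 for Cdkn1a, -1.78 to 0.51 for Ccng1, -0.87 to 0.69 for Trp53inp1, -2.81 to 2.22 for Phlda3, -1.42 to 0.24 for Zmat3 and -1.01 to 0.48 for Aen. For mtDNA over PBS the ranges that crossed 0 were -0.34 to 0.07 for Trp53inp1, -0.02 to 1.33 for Phlda3, -0.49 to 0.40 for Zmat3 and -0.23 to 0.35 for Aen. For Ox-mtDNA over mtDNA they were -1.06 to 1.03 for Cdkn1a, -1.43 to 0.91 for Ccng1, -0.74 to 0.85 for Trp53inp1, -3.49 to 1.59 for Phlda3, -1.33 to 0.32 for Zmat3 and -1.05 to 0.46 for Aen. The sign also changed in other settings. With limma-voom, Ox-mtDNA over PBS gave -0.74 for Ccng1, -0.16 for Trp53inp1, -1.49 for Phlda3 and -0.21 for Aen, mtDNA over PBS gave -0.27 for Phlda3 and -0.08 for Aen, and Ox-mtDNA over mtDNA gave -0.06 for Cdkn1a, -0.16 for Ccng1, -0.04 for Trp53inp1, -1.22 for Phlda3 and -0.13 for Aen. With the replicate block, Ox-mtDNA over PBS gave -0.81 for Ccng1, -0.05 for Trp53inp1, -0.31 for Phlda3 and -0.15 for Aen, mtDNA over PBS gave -0.28 for Phlda3 and -0.11 for Aen, and Ox-mtDNA over mtDNA gave -0.01 for Ccng1, -0.04 for Phlda3 and -0.04 for Aen. With no filter, Ccng1 was at -0.04 for Ox-mtDNA over PBS. With replicates 1 and 2 only, mtDNA over PBS gave 0.22 for Ccng1 and 0.01 for Zmat3. With the replicate block in that fit, Ccng1 was at 0.13 for mtDNA over PBS and Aen at -0.06 for Ox-mtDNA over mtDNA. Sesn1 was negative in all 3 comparisons under all 19 alternatives. The block changed no call of any of the 9 genes. In every library 8 of the 9 genes had at least 70 counts, while Phlda3 had 0 counts in 1 library.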
